A study of Mus musculus with 9 samples.

Results

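The genes followed here were Fgf23 and those whose products glycosylate (Galnt3), phosphorylate (Fam20c) or cleave (Furin and Pcsk5) the FGF23 protein or repress the hormone's expression (Phex). They are 6 of the 55416 genes of the deposited count table. The 6 were chosen by gene symbol for these roles, with earlier results of these data known. RNA was sequenced from MC3T3-E1 cells, a wild-type mouse calvarial pre-osteoblast line (the study used 1 subclone, subclone 4), differentiated with dexamethasone, ascorbic acid and 10 mM β-glycerophosphate (BGP). The paper's methods give removal of BGP at day 21, while the labels describe the osteogenic medium up to the treatment. For the last 16 h before harvest on day 28, cells received 4 mM BGP, an organic phosphate, or 4 mM NaHPO4 (Na2HPO4/NaH2PO4), an inorganic phosphate, or no addition (Control). Medium of all groups held 1 mM phosphate, and each group had 3 libraries. Neither labels nor methods say whether the 3 libraries of a group came from separate cultures, so p-values measure the spread between these libraries, which may be technical.

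FGF23 is a hormone made by osteocytes and osteoblasts that makes the kidney excrete phosphate and lowers active vitamin D. Inside the cell its fate is set by competing modifications near a cleavage site: GALNT3 attaches an O-linked sugar that shields the site, FAM20C phosphorylates a nearby serine and thereby hinders that sugar, and furin-type convertases cut the unshielded protein into inactive fragments. PHEX is a membrane endopeptidase of bone cells whose loss raises FGF23. RNA levels report none of these protein modifications.

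The comparisons asked whether organic and inorganic phosphate change the RNA of the hormone and of these processing genes alike. BGP raised Fgf23 and Fam20c, whereas NaHPO4 raised Fam20c alone among the members tested. Phex was 1.2-fold higher with BGP, a call that was lost in 6 of 19 alternatives. Among these were the leave-outs of each Control library and of BGP replicates 1 and 3. Galnt3 and Furin passed the test in no comparison, and Pcsk5 had no reads. Counts were scaled by library size (CPM, TMM-normalized), and log2FC and FDR come from edgeR's quasi-likelihood test with Benjamini-Hochberg adjustment over 13679 genes. A differentially expressed gene (DEG) had an FDR under 0.05 and an absolute log2FC over 0.5, the study's rule.

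Libraries held 21390839 to 28234404 counts, with TMM factors from 0.989 to 1.02. All 6 osteoblast markers (Runx2, Sp7, Alpl, Col1a1, Bglap and Ibsp) had at least 10 counts in every library. Their summed level was 54900 to 58600 CPM in Control, 53200 to 56800 with BGP and 48700 to 51900 with NaHPO4. Most of the sum was Col1a1, at 43300 ± 2120, 41500 ± 1790 and 37300 ± 1550 CPM in the same order (SD, n = 3). With NaHPO4 the sum did not overlap with Control, and its part in the results for NaHPO4 was not tested. With NaHPO4, Col1a1 fell by 0.22, Alpl by 0.21 and Bglap by 0.15 on the log2 scale (FDR 2.47e-05, 0.00128 and 0.0146), and with BGP none of the 6 passed. Of 5 osteocyte markers (Dmp1, Phex, Mepe, Sost and Pdpn), 4 had at least 10 counts in every library. Their summed level was 137 to 157 CPM in Control, 593 to 676 with BGP and 384 to 444 with NaHPO4. The rise of the sum was nearly all Dmp1, at 76 ± 10.4, 552 ± 41.8 and 349 ± 30.3 CPM in the same order (SD, n = 3). Mepe and Pdpn passed in no comparison. Sost, a gene of mature osteocytes, was at 1.39 ± 0.036 CPM in Control, 1.21 ± 0.599 with BGP and 0.427 ± 0.0792 with NaHPO4 (SD, n = 3). It had at most 36 counts in a library. Of markers of other cells, 1 of 4 adipocyte, 1 of 4 skeletal muscle, 3 of 5 macrophage or osteoclast, 2 of 4 chondrocyte and 0 of 3 endothelial genes had 10 counts in every library. Myod1, Myog and Kdr were at 0 counts and Ptprc had at most 1.

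**Figure D1:**
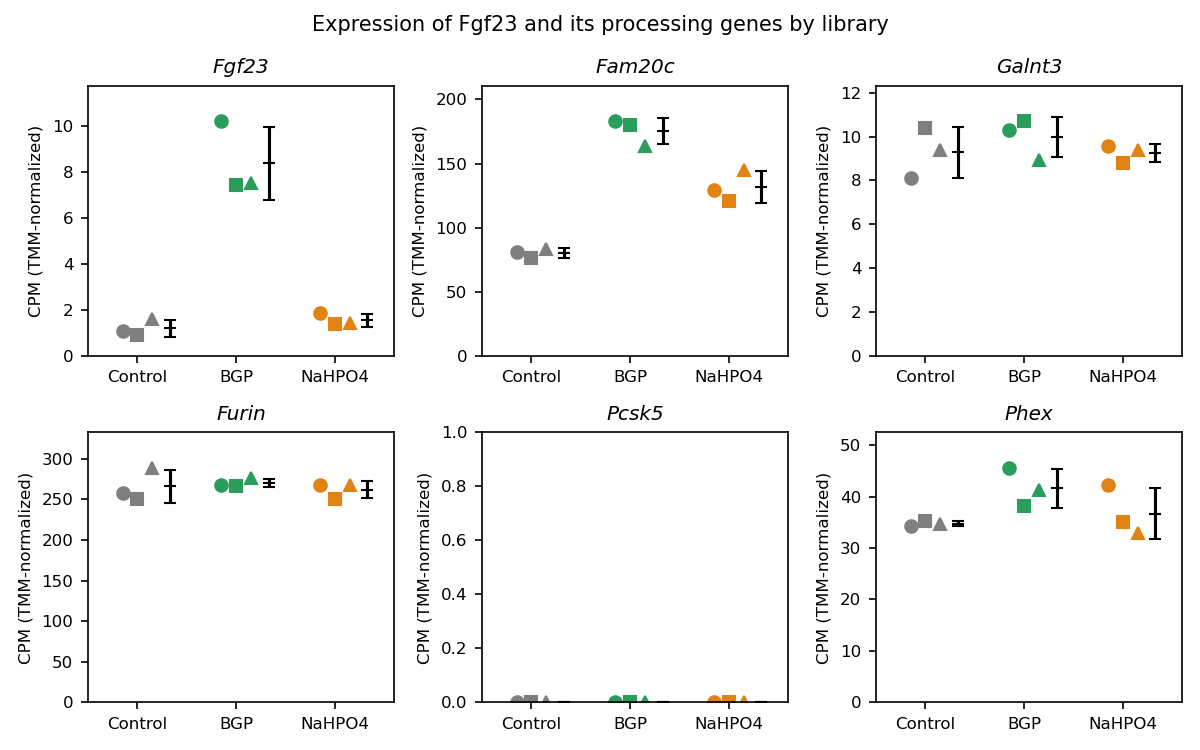
TMM-normalized CPM (y axis, from 0) of the 6 genes in each library of Control, BGP and NaHPO4 (x axis), with circles, squares and triangles for replicates 1, 2 and 3 and bars for the mean and SD of 3 libraries. Every BGP library lies above every Control library for Fgf23, Fam20c and Phex, and Pcsk5 is at 0 throughout.

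Fgf23 (ENSMUSG00000000182) lies at chr6:127049865-127059255 on the plus strand of GRCm39 and has 3 exons. In Control its level was 1.08, 0.914 and 1.61 CPM in replicates 1, 2 and 3, resting on 23, 21 and 41 counts. BGP libraries reached 10.2, 7.41 and 7.52 CPM, from 227, 165 and 175 counts. NaHPO4 libraries held 1.86, 1.37 and 1.41 CPM, from 51, 39 and 36 counts. The BGP values stood apart from all others, while those of NaHPO4 and Control overlapped.

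With BGP, Fgf23 was 6.88-fold higher than in Control (95% confidence interval 5.17 to 9.15, log2FC 2.78 ± 0.203 SE, FDR 1.07e-12). Compared directly at 4 mM, BGP gave 5.41 times the level with NaHPO4 (interval 4.15 to 7.06, FDR 1.14e-11). NaHPO4 against Control gave a log2FC of 0.35 ± 0.253 and an FDR of 0.496, and the interval ran from 0.89- to 1.81-fold. The interval includes no change. The 85 Control counts of Fgf23 summed over 3 libraries carry a counting error of 18.8% per library, and the observed coefficient of variation was 30.5%. With BGP the corresponding values were 7.27% and 19.1%, and with NaHPO4 15.4% and 17.6%. The observed values lay above counting error in each group, but each rests on 3 libraries and the excess was not tested. Both comparisons with Control use the same Control libraries.

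Among markers of other cell types, the summed chondrocyte list (Col2a1, Acan, Sox9 and Col10a1) lay at 248 to 306 CPM in Control, 339 to 446 with BGP and 185 to 264 with NaHPO4. Nearly all of it was Col2a1, at 242 ± 32.4, 342 ± 54.4 and 177 ± 42.9 CPM (SD, n = 3), while Acan never exceeded 1 count in a library. The macrophage or osteoclast list, mostly Ctsk, lay at 290 to 297, 276 to 287 and 250 to 263 CPM in the same order. Of that list, Csf1r and Cd68 were at 0.922 and 0.913 CPM in Control, and Acp5 had at most 4 counts in a library. The part of both lists in the changes of Fgf23 and the other members was not tested. In bulk RNA fewer cells of a type and less RNA per cell cannot be told apart.

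Fam20c (ENSMUSG00000025854, chr5:138740173-138795832, plus strand) encodes the Golgi kinase of secreted proteins, including FGF23 and the SIBLING phosphoproteins of bone. Its level was 80.8, 76.1 and 83.5 CPM in the Control libraries, 183, 180 and 164 with BGP and 129, 121 and 145 with NaHPO4. The 3 groups did not overlap and lay in the order Control, NaHPO4, BGP. Relative to Control, Fam20c rose 2.19-fold with BGP (interval 2.04 to 2.35, log2FC 1.13 ± 0.0499, FDR 4.38e-19). NaHPO4 raised it 1.64-fold (interval 1.53 to 1.76, log2FC 0.71 ± 0.0502, FDR 5.75e-13). The difference between both phosphates was itself past the test, at 1.33-fold (interval 1.25 to 1.43, FDR 9.3e-08), but below the log2FC that defines a DEG. Antisense RNAs absent from the count table overlap 6.22% and 0.681% of the exonic bases of Fam20c, and whether strand was used in counting is not given in the sources used here.

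The 250 bases before the RefSeq transcription starts of Fgf23 and Fam20c are shown because both genes were DEGs with BGP. The sequences come from a RefSeq table on GRCm38.p6, in which all 6 members were found. They were placed on GRCm39 by exact match at chr6:127049615-127049864 for Fgf23 and chr5:138740586-138740835 for Fam20c, both on the plus strand. The Fgf23 window ends at the base before the annotated gene start given above. The Fam20c window lies inside the annotated gene, which begins at chr5:138740173, so it precedes the RefSeq start only. Capitals mark the pentamer TGACG, the half-site of the cyclic AMP response element.
Fgf23: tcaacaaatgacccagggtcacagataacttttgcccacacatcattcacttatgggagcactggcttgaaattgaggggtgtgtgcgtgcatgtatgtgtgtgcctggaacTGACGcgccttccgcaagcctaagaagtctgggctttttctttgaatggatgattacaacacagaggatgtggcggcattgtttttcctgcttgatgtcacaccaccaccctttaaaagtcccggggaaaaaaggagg
Fam20c: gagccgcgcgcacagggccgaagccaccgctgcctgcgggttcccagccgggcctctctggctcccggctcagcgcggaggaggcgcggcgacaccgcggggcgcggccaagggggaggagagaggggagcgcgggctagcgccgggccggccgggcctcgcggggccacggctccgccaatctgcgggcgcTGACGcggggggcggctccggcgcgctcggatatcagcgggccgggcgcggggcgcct

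TGACG began 138 bases before the RefSeq start of Fgf23 and 58 before that of Fam20c. On either strand it was in the windows of 4 members (also Furin and Phex) and in 17.9% of all 27025 windows of this length. Other letters searched on both strands matched neither of these windows. They were those of EGR (GCGNGGGCG, in 4.65% of all windows), AP-1 (TGANTCA, 6.87%), SMAD (CAGACA, 17.1%), ETS (CCGGAA, 12.2%), HIF (ACGTG, 16.6%), NR4A (AAAGGTCA, 1.31%), the nuclear receptor half-site (AGGTCA, 13.8%, which lies within the NR4A letters) and the TATA box (TATAAA, 13%). The EGR letters were in the window of Galnt3, the SMAD letters in those of Furin and Phex, and the TATA letters in that of Furin. The Galnt3 window also lies inside its annotated gene, and that of Phex overlaps its gene in part. The base composition of both windows differed, with 48.4% G and C for Fgf23 and 81.2% for Fam20c against a median of 52.0% over all windows. A match is a match of letters and was not tested for binding.

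Galnt3 (ENSMUSG00000026994, chr2:65913110-65955482, minus strand) encodes the transferase that starts the protective O-glycan of FGF23. Control libraries held 8.09, 10.4 and 9.37 CPM, BGP libraries 10.3, 10.7 and 8.94, and NaHPO4 libraries 9.57, 8.81 and 9.37. The 3 groups overlapped. The log2FC was 0.10 ± 0.11 for BGP (interval 0.919- to 1.25-fold, FDR 0.756) and -0.01 ± 0.108 for NaHPO4 (interval 0.854- to 1.16-fold, FDR 0.976). Between the phosphates it was 0.11 ± 0.107 (FDR 0.682). A change of Galnt3 above 1.25-fold with either phosphate lies outside these intervals.

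Furin (ENSMUSG00000030530, chr7:80038333-80055184, minus strand) encodes the main ubiquitous convertase of the secretory pathway. Its level was 258, 251 and 289 CPM in Control, 268, 267 and 276 with BGP and 268, 250 and 268 with NaHPO4, and the groups overlapped. The log2FC was 0.02 ± 0.0404 with BGP (interval 0.959- to 1.07-fold, FDR 0.88) and -0.03 ± 0.0402 with NaHPO4 (interval 0.928- to 1.04-fold, FDR 0.797). These were the narrowest intervals of the 5 members tested. Between the phosphates the log2FC was 0.05 ± 0.0402 (FDR 0.619).

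Pcsk5 (ENSMUSG00000024713, chr19:17409683-17815052, minus strand), a convertase of the same family, had 0 counts in all 9 libraries. A count of 0 allows up to 3 counts, or 0.105 to 0.14 CPM depending on the library, counting error only. Whether the authors' annotation or counting left reads of this gene out cannot be told from the counts, and the limit holds only if it did not. The gene was not tested. Of 21627 protein-coding genes matched to the annotation, 30.4% were at 0 in every library. Among the 3129 with more than 10000 exonic bases, as Pcsk5 has with 19034, it was 8.63%.

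Phex (ENSMUSG00000057457, chrX:155945071-156198308, minus strand) lay at 34.3, 35.3 and 34.6 CPM in Control. Its values were 45.6, 38.1 and 41.2 CPM with BGP and 42.2, 35.0 and 32.9 CPM with NaHPO4. Control and BGP did not overlap, and NaHPO4 spanned the Control values. In both phosphate groups replicate 1 was the highest for Phex and also for Fgf23. BGP raised Phex 1.2-fold (interval 1.09 to 1.32, log2FC 0.26 ± 0.0696, FDR 0.0333), which is not a DEG. This call depended on the tool and on single libraries, and the FDR was 0.058 with DESeq2, 0.115, 0.0692 and 0.0873 without Control replicate 1, 2 or 3, 0.29 without BGP replicate 1 and 0.0694 without BGP replicate 3. Phex with NaHPO4 had a log2FC of 0.08 ± 0.0692 (FDR 0.579). The difference between the phosphates was 0.18 ± 0.068 (FDR 0.134), and passed without NaHPO4 replicate 1 (log2FC 0.29, FDR 0.00416).

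**Figure D2:**
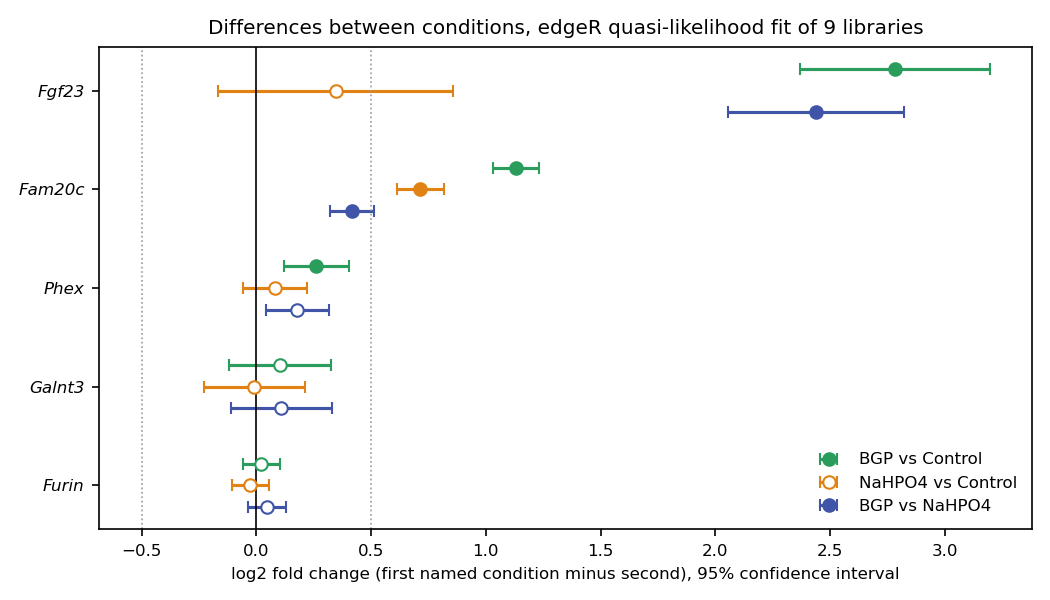
Log2 fold change with 95% confidence interval (x axis) of the 5 tested genes (y axis) in the 3 comparisons, from one edgeR fit of 9 libraries. Filled points passed an FDR of 0.05, open points did not, and dotted lines mark the log2FC of 0.5 in either direction. Fgf23 separates BGP from both other conditions, Fam20c is to the right of 0 in all 3 comparisons, and the intervals of Galnt3 and Furin include 0.

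Counted together, 3 of 5 tested members passed an FDR of 0.05 for BGP against Control, where 2.53% of all tested genes did, and 2 were DEGs against 0.556%. Groups did not overlap for 3 members, against 18.5% of all genes. For NaHPO4 against Control, Fam20c was the 1 member past the FDR (7.38% of all genes), the 1 DEG (0.716%) and the 1 without overlap (23.2%). For BGP against NaHPO4, Fgf23 and Fam20c passed the FDR (5.38%), Fgf23 was a DEG (0.585%), and 2 members did not overlap (21.2%). The members were chosen with earlier results of these data known, so these counts are descriptions and no test.

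Ratios within a library do not depend on library scaling. Per 1000 Galnt3 reads there were 131 ± 42.2 Fgf23 reads in Control, 842 ± 149 with BGP and 166 ± 24 with NaHPO4 (SD, n = 3). Per 1000 Fam20c reads there were 14.9 ± 3.91, 47.7 ± 7.45 and 11.8 ± 2.39 Fgf23 reads, in the same order. The hormone thus gained 1.70 log2 units over its kinase with BGP, and had a difference of -0.32 with NaHPO4. Relative to Furin and Phex, Fgf23 with BGP was 6.99 and 5.95 times the Control ratio. In the two-sided exact permutation test every ratio of BGP against either other group had p = 0.1, the smallest that 3 against 3 libraries allow (0.15 adjusted over 12 tests), and the design cannot reach 0.05. For NaHPO4 against Control the exact p was 0.3 for Galnt3 and Furin and 0.4 for Fam20c and Phex.

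Levels of different genes were compared per kilobase of exon (RPKM). In Control the order was Furin (25.9 ± 1.98), Fam20c (9.75 ± 0.453), Phex (5.52 ± 0.0863), Galnt3 (1.7 ± 0.212) and Fgf23 (0.445 ± 0.136, SD, n = 3), with no overlap between neighbours. With BGP, Fgf23 was at 3.11 ± 0.594 RPKM and lay above Galnt3 at 1.83 ± 0.169. The 3 Fgf23 values from 2.75 to 3.79 exceeded those of Galnt3, from 1.64 to 1.96. That gap depended on the gene length. Per canonical transcript in place of all exons, an alternative chosen after the data were seen, Galnt3 was at 2.3 to 2.75 RPKM and the lowest Fgf23 library was level with the highest of Galnt3. Fam20c stood at 21.4 ± 1.27 RPKM with BGP, below Furin at 26.3 ± 0.484. With NaHPO4 the order was that of Control, with Fgf23 at 0.572 ± 0.101. Among protein-coding genes with counts, Fgf23 moved from percentile 28.9 in Control to 51.4 with BGP, and Fam20c from 78.3 to 91.

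**Figure D3:**
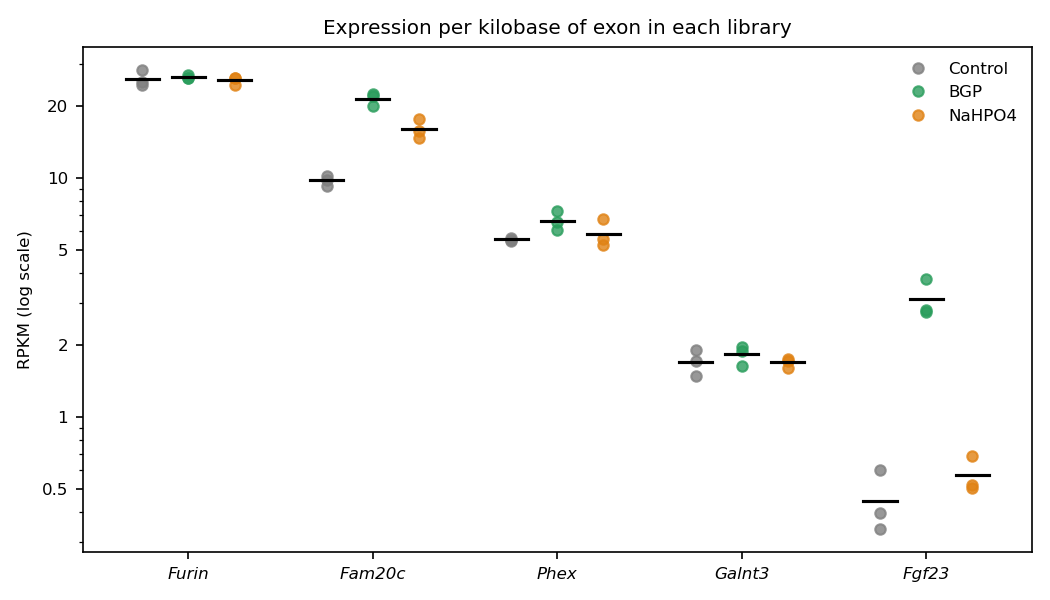
RPKM (y axis, log scale) of the 5 genes with counts, with 1 point per library and a line at the mean of 3, in Control, BGP and NaHPO4. Fgf23 is the lowest of the 5 in Control and NaHPO4 and lies above Galnt3 with BGP when all exons set the length.

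The families of the processing enzymes were followed in lists of related genes. Of 9 further convertases and their binding proteins, 4 were tested and none passed an FDR of 0.05 in any of the 3 comparisons. Mbtps1, the site-1 protease, was at 24.5 ± 0.798 RPKM in Control, Pcsk7 at 6.35 ± 0.302, Pcsk6 at 4.94 ± 0.285 and Pcsk4 at 0.237 ± 0.0409, all above the 0 of Pcsk5. Mbtps1 overlapped with Furin in Control. Pcsk1 and the inhibitor Pcsk1n were at 0 there, and Pcsk2 at 0.00118 RPKM.

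Per length, Galnt3 lay below 5 other GalNAc transferases. Galnt10 was the highest, at 21.7 ± 0.36 RPKM in Control, followed by Galnt1 (9.65 ± 0.301), Galnt4 (6.49 ± 0.31), Galnt11 (5.72 ± 0.0661) and Galnt7 (2.75 ± 0.253). C1galt1, which extends the first sugar, and its chaperone C1galt1c1 were at 3.43 ± 0.153 and 13 ± 0.886 RPKM. Of 12 genes tested in this list of 20, none passed with BGP and none between the phosphates. With NaHPO4, Galnt15 rose with a log2FC of 0.55 ± 0.157 (FDR 0.0252) and C1galt1 with 0.23 ± 0.0511 (FDR 0.00233).

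Among 10 tested secretory pathway kinases besides Fam20c, Fam20a moved in the same order as Fam20c. FAM20A is a pseudokinase that binds FAM20C and raises its activity. Its level was 14.6 CPM in Control, 24.4 with BGP and 19.9 with NaHPO4, a log2FC of 0.73 ± 0.0921 with BGP (FDR 8.4e-07) and of 0.44 ± 0.0923 with NaHPO4 (FDR 0.00146). Between the phosphates its log2FC was 0.29 ± 0.087 (FDR 0.0374). Fam20b, the xylose kinase of the same family, had log2FCs of 0.06 ± 0.039 and 0.08 ± 0.0385 and was named after its values were seen. Pkdcc, a secreted tyrosine kinase and the highest of the list at 24.9 ± 1.02 RPKM in Control, fell by 0.13 on the log2 scale with BGP (FDR 0.0498) and by 0.15 with NaHPO4 (FDR 0.00927).

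Of 3 tested M13 metallopeptidases besides Phex, Ece1, the endothelin-converting enzyme and the highest at 26.3 ± 0.191 RPKM in Control, fell by 0.19 on the log2 scale with NaHPO4 (FDR 0.00138). Its log2FC was 0.10 ± 0.039 with BGP (FDR 0.207), and the direct difference between the phosphates was 0.29 ± 0.0389 (FDR 2.91e-06).

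**Figure D4:**
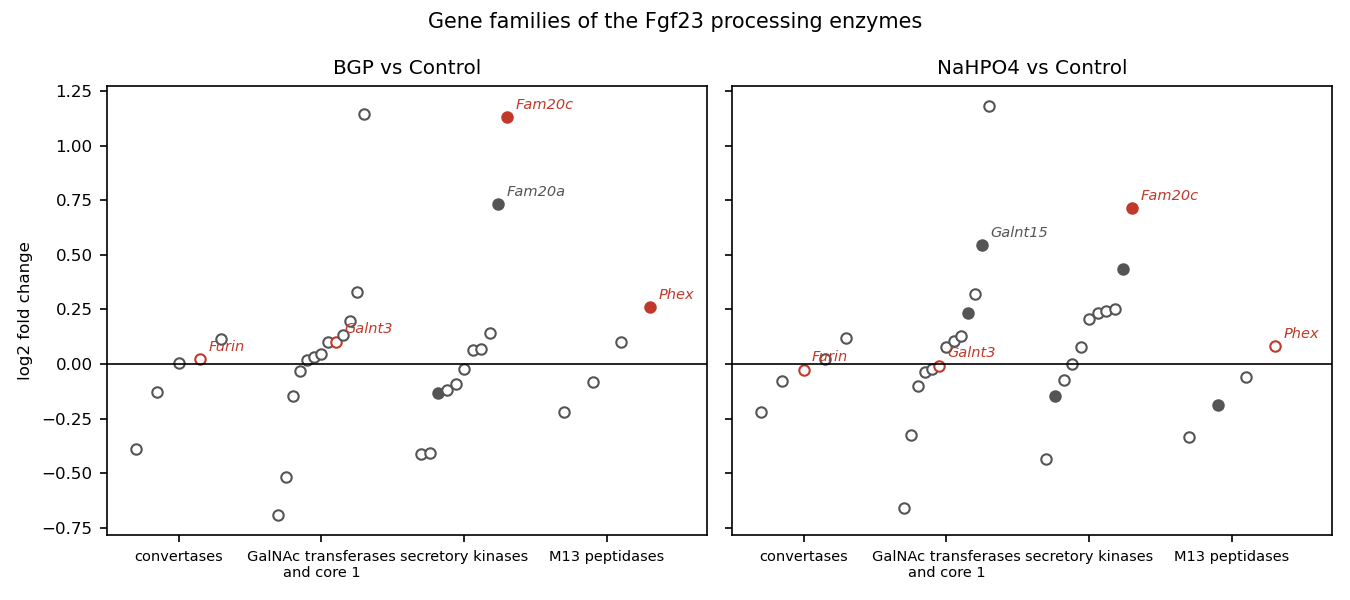
Log2 fold change (y axis) of each tested gene of 4 enzyme families (x axis), for BGP against Control on the left and NaHPO4 against Control on the right, with the followed genes in red. Filled points passed an FDR of 0.05. Fam20c and Fam20a, which rose, and Pkdcc, which fell, are filled in both panels, and the convertases are open in both.

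Of the listed FGF receptor genes, Fgfr1, Fgfr2 and Fgfr3 were tested. Fgfr4 was at 0.0145 CPM in Control and at 0 with BGP and NaHPO4, and was not tested. Kl, which encodes the coreceptor klotho, was at 0 counts in all 9 libraries. Fgfr2 was the highest of the list, at 78.3 ± 1.04 RPKM in Control. With BGP none of the 3 receptors tested passed. With NaHPO4, Fgfr2 fell by 0.12 and Fgfr3 by 0.18 on the log2 scale (FDR 0.00764 and 0.000139), and Fgfr1 rose by 0.12 (FDR 0.014). Fgfr3 was also higher with BGP than with NaHPO4, by 0.11 (FDR 0.0324). Fgfr1, Fgfr3 and Fgfr4 were named after their values were seen. Of the renal targets of FGF23, Cyp27b1 was the 1 gene tested and had log2FCs of 0.05 ± 0.221 and 0.21 ± 0.212.

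Of 12 genes linked to Fgf23 transcription, 6 rose and 0 fell with BGP, where 2.53% of all tested genes passed in either direction. With NaHPO4, 4 rose and 3 fell, where 7.38% passed. The list was chosen with earlier results of these data known, and the paper reports Dmp1, Enpp1 and Egr1 among its changed genes. These shares are thus descriptions and no test of the list. Dmp1, Enpp1 and Slc20a1 rose with both. Slc20a1, the sodium-phosphate cotransporter PiT-1, had log2FCs of 1.10 ± 0.048 with BGP (FDR 3.25e-19) and 0.69 ± 0.0484 with NaHPO4 (FDR 5.75e-13). Vdr, the vitamin D receptor, and Egr1, an immediate early transcription factor, went opposite ways. Vdr was at 131 CPM in Control, 158 with BGP (log2FC 0.26 ± 0.0477, FDR 0.000585), where the groups overlapped, and 108 with NaHPO4 (log2FC -0.29 ± 0.0483, FDR 6.73e-05). Egr1 was at 103, 191 and 85.1 CPM (log2FC 0.89 ± 0.0425 and -0.28 ± 0.0441, FDR 4.99e-18 and 2.7e-05). Directly between the phosphates, the log2FC was 0.55 ± 0.0479 for Vdr and 1.16 ± 0.0427 for Egr1 (FDR 2.24e-10 and 5.68e-21). Pth1r, the receptor of parathyroid hormone and the highest of the list per length, had log2FCs of -0.05 ± 0.0311 with BGP (FDR 0.573) and -0.18 ± 0.031 with NaHPO4 (FDR 0.000127).

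Over all these lists, 44 of 67 genes besides the members were tested. All lists were chosen with earlier results of these data known, so the shares passing are descriptions and no test. With BGP 8 passed an FDR of 0.05 (18.2%, 7 higher and 1 lower), where 2.53% of all tested genes did. With NaHPO4 14 passed (31.8%, 7 and 7) against 7.38%, and between the phosphates 9 (20.5%, all higher with BGP) against 5.38%.

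Among the genes whose log2 CPM followed Fgf23 most closely over the 9 libraries were Sdc1 (r = 0.973), Egr2 (0.969), Skil (0.968) and Larp1 (0.965). The libraries share 3 conditions, so that these are descriptions of a contrast between BGP and the rest, with no p. Egr2 was at 7.91 ± 1.08 CPM in Control, 20.6 ± 2.1 with BGP and 7.09 ± 0.511 with NaHPO4, and Skil at 28.3 ± 1.97, 44.7 ± 3.15 and 29.7 ± 1.19. Fam20c was followed by Ank and Slc39a14 (both 0.997) and Nudt4 (0.995), which rose with both phosphates and more with BGP. Ank, at 81.4 ± 7.1, 253 ± 11.1 and 176 ± 18.1 CPM, encodes the pyrophosphate transport regulator. For Phex the closest were Nop14 (0.959), Zdhhc13 (0.949) and Luzp1 (0.926), for Galnt3 they were Haus3 (0.954), Mcc (0.918) and Fam76a (0.896), and for Furin they were Creb5 (0.922), Ddhd1 (0.912) and Smyd4 (0.911). None of these 9 genes passed an FDR of 0.05 in any comparison, and Creb5 was low, at 0.412 ± 0.327 CPM in Control (SD, n = 3).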

How the data were processed

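The authors made stranded poly(A) libraries, sequenced them as paired reads and mapped these to GRCm39 with Ensembl release 104 annotation in the AIR software. The aligner and counter are not given in the sources used here. The authors deposited whole-number counts per gene without normalization. The authors' second file holds a TMM-scaled signal, which is the counts of a library times 1 factor for that library. The counts were used for all results, and the second file gave gene symbols and 1 alternative. In both, 0 columns belonged to other samples.

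Libraries were grouped by the labels. Genes were filtered with filterByExpr (edgeR 4.0.16, count minimum 10), scaled by TMM and fitted over all 9 libraries with glmQLFit. glmQLFTest gave the p-values of 3 comparisons, adjusted by Benjamini-Hochberg over all tested genes, and standard errors were derived from the F statistic. RPKM used the exons of GENCODE vM39, in which 54749 of 55416 gene IDs matched. On simulated counts for BGP against Control over 13542 genes, 198 of 200 changed genes (99%) were recovered with 4 false calls. Recovery at the members' own spread and size of change was not tested. Their fitted coefficient of variation beyond counting error was 10.9% for Fgf23, 6.34% for Galnt3 and 5.02% for Phex. It was 3.96% for Fam20c and 3.48% for Furin, with a common value of 3.64%. Likeness was Pearson's r of log2 CPM with a prior count of 2. R 4.3.3, limma 3.58.1, DESeq2 1.42.0, Python 3.11.15, pandas 2.3.3 and matplotlib 3.10.9 were used.

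Members and gene lists were chosen with earlier results of these data known. From the lists, genes were named that were DEGs in any comparison, the highest of each list per length, and convertases or GalNAc transferases above the member of their list; from all tested genes, the 5 most like Fgf23 and the 3 most like each other member. Some results that this rule would name are not reported here. Alternatives were DESeq2, edgeR's likelihood ratio and exact tests, limma on log2(value + 1), other scalings and filters, a fit of the compared groups alone, the replicate block, stricter thresholds and each library left out.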

Additional observations from a re-analysis of the deposited data

How the results depend on the processing

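Over 19 alternatives each, no call of Fgf23 or Fam20c changed. The log2FC of Fgf23 ranged from 2.62 to 3.07 for BGP against Control, 0.18 to 0.64 for NaHPO4 against Control and 2.27 to 2.59 between the phosphates, and that of Fam20c from 1.10 to 1.18, 0.64 to 0.77 and 0.36 to 0.49. With a minimum log2FC of 1, 0 members were DEGs for NaHPO4 against Control, since Fam20c lies below it. Phex with BGP kept its FDR under 0.05 in 13 of 19 alternatives, which include the leave-outs of NaHPO4 libraries, outside this comparison. Of the leave-outs of a Control or BGP library, only that of BGP replicate 2 kept it (FDR 0.0187). Changes of sign were all in values that passed no test: Galnt3 with NaHPO4 was 0.0133 with limma and 0.0164 with total counts, and from -0.0939 to 0.0786 with 1 library left out. Leaving out 1 library also gave Furin from -0.0182 to 0.087 with BGP and from -0.0657 to 0.0396 with NaHPO4, and Phex from -0.0313 to 0.1526 with NaHPO4. The cause was not tested. Same-numbered libraries deviated together with r from -0.0092 to 0.0426 only, although 7 of 9 correlated best with their own number, a hint from the data and not the design. With the replicate block the members past an FDR of 0.05 were again 3, 1 and 2, the listed genes past it went from 8, 14 and 9 to 7, 15 and 9, and the log2FC of Fgf23 with BGP was 2.77. No member's call changed under the block. Of the members tested Fgf23 had the fewest counts, 21 to 41 in a Control library. Its observed spread lay above counting error in each group, an excess that was not tested.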
